A study of Mus musculus with 6 samples.

Results

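The genes described here are 10 genes for maternal mRNA storage and translational repression in the oocyte, namely Zar1, Zar1l, Ybx2, Ddx6, Lsm14a, Lsm14b, Patl2, Eif4enif1, Eif4e1b and Eif4e. They were listed by symbol, by a rule that uses no measured value, with earlier results of these data known, and were found through their Ensembl identifiers among the 53465 genes of the count table. All 10 had enough reads to be tested, as did 11842 genes in all. The study asked whether quercetin, a plant flavonol with antioxidant action, changes gene expression in M II oocytes of aged mice. Oocytes of female Kunming (KM) mice aged 9 to 10 months were matured in vitro without addition (control) or with 10 μM quercetin, and their RNA was sequenced after Smart-seq amplification. Each group had 3 pools, and each pool combined 15 M II oocytes from 3 mice, so that a value is an average over oocytes and animals. Animals of other ages were not among the groups, and no label says that pools with the same number shared animals, so that p-values measure the spread between pools only.

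A growing oocyte makes more mRNA than it translates and keeps the rest silent in ribonucleoprotein particles until meiosis resumes or the embryo forms. ZAR1, its paralogue ZAR1L and the Y-box protein YBX2 (MSY2) bind these stored mRNAs. The helicase DDX6 holds them in a repressed complex with LSM14A, LSM14B and PATL2. The protein 4E-T (encoded by Eif4enif1) binds eIF4E, the cap-binding subunit that starts translation, and eIF4E1B is the oocyte form of the cap-binding protein. The levels described below are those of the mRNAs for these proteins. They carry no information on how much protein was present or which mRNAs it held.

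The last bases of several of these mRNAs and the promoters of Zar1 and Zar1l are shown because they were searched for short elements known from the polyadenylation of oocyte mRNAs and from oocyte promoters. In the last 100 bases of the longest complete GENCODE M21 coding transcript (GRCm38), the polyadenylation hexamer (AATAAA or ATTAAA) and the cytoplasmic polyadenylation element (TTTTAT or TTTTAAT) were searched on the transcript strand. The hexamer was found in 78.5% and the cytoplasmic element in 17.8% of 19846 coding genes, and both in 14.4%. Of the 9 genes of the group with such a transcript (Zar1l had none), 8 held the hexamer. Lsm14a held both elements, with 11 bases between the cytoplasmic element and the last hexamer. An earlier AATAAA in Lsm14a overlaps the cytoplasmic element and is not marked as a hexamer. Ybx2 held TTTTAT without a hexamer, and the other 7 held the hexamer alone. The stretches below are written 5′ to 3′ in the sense of the mRNA, with the last hexamer and the cytoplasmic element in capitals. That of Zar1 lies at chr5:72577123-72577152 (minus strand), Lsm14a at chr7:34344658-34344687 (minus), Lsm14b at chr2:180035423-180035452 (plus), Eif4e1b at chr13:54788421-54788450 (plus) and Eif4e at chr3:138559658-138559687 (plus), all in the 3′ UTR.
Zar1: ttggatataaagcctgtgAATAAAaggtat
Lsm14a: TTTTAATaaaggccatggAATAAAgagatc
Lsm14b: ttggggaaatgcaaactaAATAAAcattgg
Eif4e1b: aggccctttctgtatctaAATAAAcacttc
Eif4e: ttattgcagaggattggaATTAAAtgcgtt

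The RefSeq promoters (GRCm38.p6, 250 bases before to 50 after the start) were searched on both strands for the E-box CANNTG, the sequence class bound by the oocyte factor FIGLA, and for TAATTG, the element bound by the oocyte homeodomain factor NOBOX. CANNTG was present in 72.3% of 32851 promoters and TAATTG in 8% of them. The Zar1 promoter (chr5:72581035-72581334, minus strand) held E-boxes whose first bases lay 83 and 25 bases before the start. The Zar1l promoter (chr5:150518110-150518409, minus strand) held E-boxes 230 and 3 bases before the start and 2 copies of TAATTG, read here on the opposite strand, 145 and 120 bases before it. None of these matches overlapped. Capitals mark the matches, and a match describes the letters only.
Zar1: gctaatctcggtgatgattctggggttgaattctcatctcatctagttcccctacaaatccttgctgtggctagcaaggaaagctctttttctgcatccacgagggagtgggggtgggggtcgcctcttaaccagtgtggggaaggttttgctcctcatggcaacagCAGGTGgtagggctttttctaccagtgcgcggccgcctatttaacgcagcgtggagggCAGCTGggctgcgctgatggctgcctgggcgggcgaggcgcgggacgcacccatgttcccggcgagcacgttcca
Zar1l: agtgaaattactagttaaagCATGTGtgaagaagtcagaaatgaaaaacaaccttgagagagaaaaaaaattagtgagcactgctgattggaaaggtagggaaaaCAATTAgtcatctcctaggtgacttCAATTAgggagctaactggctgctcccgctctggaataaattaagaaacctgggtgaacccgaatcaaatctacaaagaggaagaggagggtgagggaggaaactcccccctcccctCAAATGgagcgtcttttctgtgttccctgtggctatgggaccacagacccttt

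The pools held 7880467 to 9938743 counts each. The defining oocyte genes were present in every pool: the summed level of 9 oocyte markers ran from 15470 to 18890 CPM (counts scaled to the library total after TMM adjustment) in the control pools and from 17320 to 18990 CPM in the quercetin pools, although Figla had only 2 to 12 counts. Of 9 markers of cumulus and granulosa cells, the somatic cells around the oocyte, Foxl2, Amh and Ptx3 were at 0 in every pool, and 3 had enough reads to be tested. The summed level of the 9 was 68.9 to 84.3 CPM in the control pools and 89.6 to 95.8 CPM in the quercetin pools, which did not overlap. Without Cyp19a1, the aromatase gene that made up most of it, the sums were 10.5 to 15.5 and 16.5 to 19.9 CPM. Of the 3 tested markers, Cyp19a1 and Kitl separated the pools upwards, beside 5.42% of all tested genes, and Has2 overlapped. Of those not tested, Fshr was lower on average with quercetin, and Tnfaip6 and Inhba were higher but near the floor. The part of these markers in the values below was not tested. For these somatic markers, the number of carried-over cells in a pool and the RNA per such cell cannot be told apart.

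The 10 mRNAs spanned a wide range of abundance. Together they took 0.172%, 0.149% and 0.145% of the counts in control pools 1, 2 and 3 and 0.173%, 0.123% and 0.140% in quercetin pools 1, 2 and 3. The levels of the 10 genes are compared with each other only in CPM per kilobase of annotated exon. On this scale Zar1 and Lsm14a stood highest at 122.8 ± 4.65 and 110 ± 2.47 in the control pools (SD, n = 3). Over all 6 pools they ran from 94.3 to 126.5 and from 95.3 to 122.7 and could not be ordered. Eif4e (25.7 ± 26.0), Eif4enif1 (25.2 ± 0.811) and Zar1l (20.2 ± 3.83) followed with overlapping ranges. Patl2 (8.59 ± 1.28), Lsm14b (7.59 ± 8.15), Ybx2 (4.32 ± 1.63) and Eif4e1b (3.74 ± 0.364) came next. Each of these ranges overlapped that of at least its neighbour in the order. Ddx6 had the lowest control mean at 1.92 ± 0.245. Its range over all pools, 1.19 to 2.75, lay within that of Lsm14b (0.872 to 17) and reached into that of Ybx2 (2.19 to 5.995). The Ddx6 range stayed under that of Eif4e1b (2.83 to 4.04). With the longest annotated transcript as the length, Lsm14a moved above Zar1 and Eif4enif1 above Eif4e. The ranges of Ddx6 (1.57 to 3.65) and Eif4e1b (3.00 to 4.28) then overlapped.

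No gene of the group differed between quercetin and control oocytes by the study's criteria, a fold change above 2 with an adjusted p below 0.05. The adjusted p-values ran from 0.988 to 0.999 (edgeR quasi-likelihood test, Benjamini-Hochberg adjustment over 11842 genes). With the same test 0% of all genes met the criteria, so the absence of calls in this test was shared with the whole table. The study itself reported up-regulated and down-regulated genes at these cutoffs and does not name the test behind them. The reason for this difference was not tested. At an unadjusted p under 0.05 none of the 10 genes passed in either direction, where 1.89% of all tested genes were lower and 2.14% higher with quercetin. DESeq2 called none of the 10 and 12 genes of the whole table. Of the 10 fold changes 5 were above and 5 below 0 on the log2 scale, with a median of -0.034, beside a median of -0.026 and 53.6% below 0 over all tested genes. A single gene, Eif4e1b, had every quercetin pool below every control pool, and none had every quercetin pool above. The same separation was seen downwards in 5.17% and upwards in 5.42% of all tested genes. With 3 pools a group, an exact permutation test cannot give a p under 0.1.

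**Figure D1:**
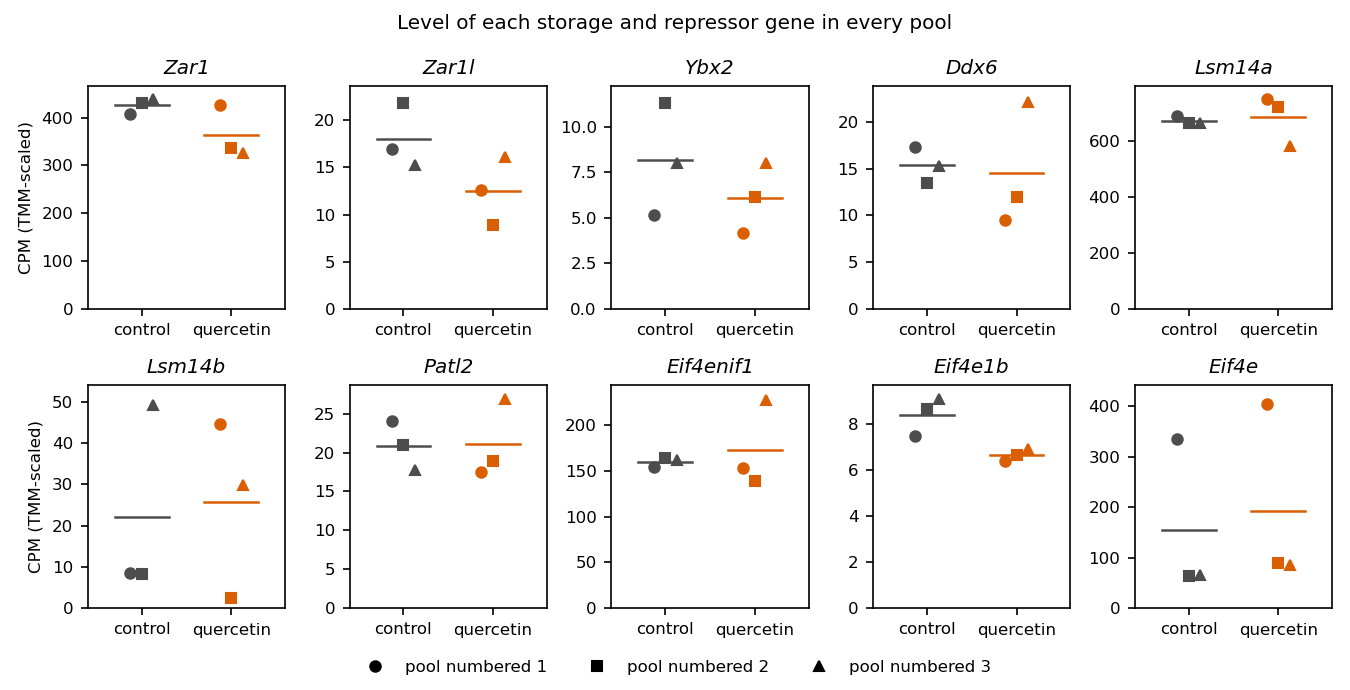
Level of each of the 10 genes in CPM after TMM scaling (vertical axes, each starting at 0) in the 3 control and 3 quercetin pools, with the symbol giving the pool number and the line the group mean. The Eif4e1b pools of the groups do not overlap, both pools numbered 1 are high in Eif4e, and the Lsm14b pools spread from 2.52 to 49.2 CPM within and across the groups.

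Among the mRNA-binding proteins, Zar1 (chr5:72576806-72581254, minus strand) was at percentile 96.4 of the tested genes in mean CPM, which is not scaled for length. It had 407, 431 and 438 CPM in control pools 1, 2 and 3 and 426.5, 336 and 327 CPM in the quercetin pools. Quercetin pools 2 and 3 lay below all control pools, and quercetin pool 1 lay among them. The log2 fold change was -0.23 ± 0.15 (SE), with a 95% interval of -0.56 to 0.10 (unadjusted p = 0.155, adjusted p = 0.988, edgeR). The interval reaches from a mean quercetin level of 0.677 of control to 1.075 times control. Scaling by library size alone placed all quercetin pools below all control pools and gave -0.32 (unadjusted p = 0.0376, adjusted p = 0.937, edgeR), but that scaling put the median of all genes at -0.11. Of the 31-base words of the Zar1 exons 41.4% also occur in other genes, most of them in Gm42668, which had 2 to 7 counts a pool, and Gm15847, which had 112 to 194, so the Zar1 level is uncertain to the extent that shared reads were split or dropped.

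Zar1l (chr5:150507055-150518164, minus strand), the paralogue of Zar1, had the largest fold change of the group in the downward direction. It had 16.9, 21.9 and 15.3 CPM in the control pools and 12.7, 8.89 and 16.1 CPM in the quercetin pools. The groups overlapped through quercetin pool 3, which lay above control pool 3. The log2 fold change was -0.52 ± 0.27 (SE, 95% interval -1.14 to 0.09, unadjusted p = 0.086, adjusted p = 0.988, edgeR), from 81 to 182 counts a pool. Leaving out quercetin pool 3 took the value to -0.74 (adjusted p = 0.327, edgeR), and leaving out quercetin pool 2 or control pool 2 took it to -0.32 or -0.36. Without quercetin pool 3 the adjusted p was lower for all 10 genes of the group, not for Zar1l alone. Zar1l stayed below Zar1 per length in every pool, with log2 ratios of -2.63, -2.35 and -2.89 in the control and -3.12, -3.29 and -2.39 in the quercetin pools.

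Ybx2 (chr11:69935796-69941605, plus strand) encodes the germ-cell Y-box protein that coats stored mRNA. It had 5.16, 11.3 and 7.99 CPM in the control pools and 4.13, 6.14 and 8.004 CPM in the quercetin pools. The groups overlapped, and the lowest pool of each group was the one numbered 1. Quercetin over control, the log2 fold change was -0.42 ± 0.36 (SE, 95% interval -1.23 to 0.40, adjusted p = 0.988, edgeR). With 33 to 94 counts a pool, a change of 2-fold downwards lies inside this interval. The value was -0.11 without control pool 2, -0.20 without quercetin pool 1 and -0.66 without control pool 1 or quercetin pool 3. Its more widely expressed relative Ybx1 stood above it per length in every pool: the log2 ratios of Ybx2 to Ybx1 were -2.65, -1.27 and -1.52 in the control and -2.69, -1.73 and -1.86 in the quercetin pools.

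In the DDX6 complex, Lsm14a and Lsm14b, which encode paralogous scaffold proteins of ribonucleoprotein granules, had the smallest and the largest SE of the 10 fold changes. Lsm14a (chr7:34344646-34393315, minus strand) had 692, 665 and 668 CPM in the control and 753, 725 and 585 CPM in the quercetin pools. Quercetin pools 1 and 2 lay above and quercetin pool 3 below all control pools. Its log2 fold change of 0.03 ± 0.14 (SE, 95% interval -0.29 to 0.35, adjusted p = 0.997, edgeR) had the smallest SE of the group and bounds the mean quercetin level between 0.815 and 1.27 times control. Scaling by library size alone turned its sign, to -0.07. Of its exon length 7.4% overlaps genes on the opposite strand, Gm12764 and 2310043P16Rik, which had at most 8 counts a pool.

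Lsm14b (chr2:180024987-180035465, plus strand) encodes the LSM14 protein that female mice need to form fertile oocytes. It had 8.53, 8.18 and 49.2 CPM in control pools 1, 2 and 3 and 44.7, 2.52 and 29.9 CPM in the quercetin pools, from 76, 68, 437, 357, 23 and 254 counts. Control pool 3 and quercetin pools 1 and 3 were high, the other 3 pools were low, and the highest was 19.5 times the lowest. The spread of log2 CPM within groups was at percentile 99.7 of all tested genes. The log2 fold change of 0.22 ± 0.91 (SE) had a 95% interval of -1.85 to 2.29 (adjusted p = 0.996, edgeR), so that neither a 2-fold rise nor a 2-fold fall could be detected at this spread. Leaving out control pool 3 gave 1.63 and leaving out quercetin pool 1 gave -0.44. None of its 31-base words occurs in another gene. Lsm14b stayed below Lsm14a per length in every pool, by log2 ratios of -5.26, -5.26 and -2.68 in the control and -2.99, -7.08 and -3.20 in the quercetin pools.

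Ddx6 (chr9:44604892-44640731, plus strand), the helicase gene at the centre of the complex, had 17.4, 13.5 and 15.3 CPM in the control and 9.52, 11.96 and 22.1 CPM in the quercetin pools. Quercetin pools 1 and 2 lay below and pool 3 above all control pools. Its log2 fold change was -0.08 ± 0.32 (SE, 95% interval -0.80 to 0.64, adjusted p = 0.996, edgeR). The SD of the quercetin pools was 6.69 CPM and that of the control pools 1.97 CPM. Without both pools numbered 1 the log2 fold change was 0.24, of the opposite sign.

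Patl2 (chr2:122120108-122186189, minus strand), the oocyte paralogue of the decapping factor gene Patl1, had 24.0, 20.9 and 17.8 CPM in the control and 17.5, 19.0 and 26.8 CPM in the quercetin pools. The groups overlapped throughout. Its log2 fold change was 0.01 ± 0.24 (SE, 95% interval -0.52 to 0.55, adjusted p = 0.999, edgeR), which leaves room for neither a 2-fold rise nor a 2-fold fall. Per length, Patl2 was close to Patl1: the log2 ratios were -0.08, -0.24 and -0.30 in the control and -0.69, -0.65 and 0.39 in the quercetin pools, and quercetin pool 3 alone had more Patl2 than Patl1.

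**Figure D2:**
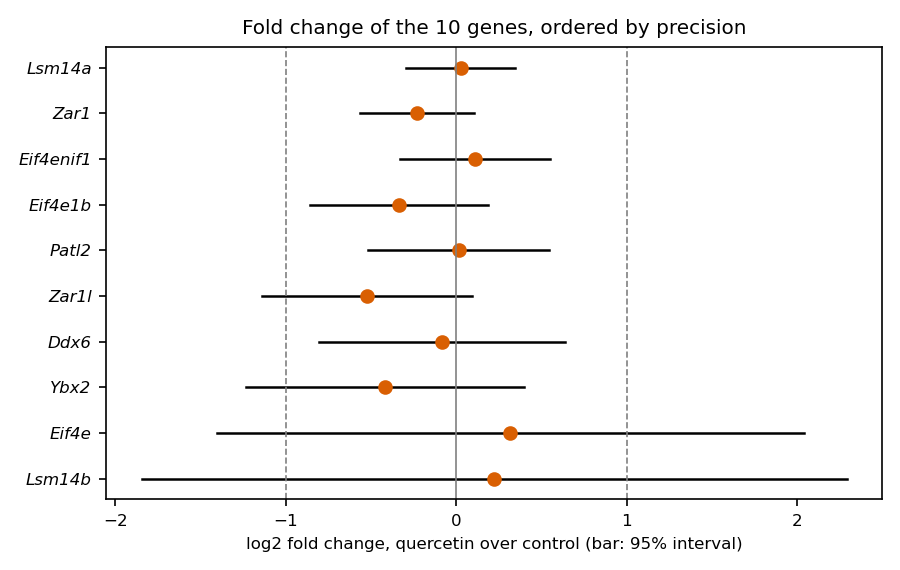
Log2 fold change of quercetin over control for each of the 10 genes (points) with its 95% interval (bars), ordered from the smallest standard error at the top. All 10 intervals span 0, and those of Zar1l, Ybx2, Eif4e and Lsm14b also cross a dashed line at a 2-fold change.

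On the cap side, Eif4enif1 (chr11:3202392-3244588, plus strand), the gene for the eIF4E-binding protein 4E-T, had 154.5, 165 and 162 CPM in the control pools and 154, 138.5 and 228 CPM in the quercetin pools. Quercetin pool 3 lay above and pools 1 and 2 below all control pools. Its log2 fold change was 0.11 ± 0.19 (SE, 95% interval -0.33 to 0.55, adjusted p = 0.988, edgeR). Without quercetin pool 3 it was -0.13. The same pool was the highest of the 6 for Ddx6, Patl2 and Eif4enif1 and the lowest for Zar1 and Lsm14a.

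Eif4e1b (chr13:54783998-54788459, plus strand), the gene for the oocyte form of the cap-binding protein, was the only gene of the group whose pools separated. It had 7.52, 8.66 and 9.11 CPM in the control pools and 6.39, 6.69 and 6.94 CPM in the quercetin pools. Every quercetin pool lay below every control pool, and this separation was the same with DESeq2 size factors and with library size alone. Of all tested genes 5.17% separated the pools downwards and 5.42% upwards, so 1 gene of 10 does not set the group apart. The exact two-sided permutation p was 0.1, the smallest that 3 pools against 3 can give. The log2 fold change was -0.34 ± 0.23 (SE, 95% interval -0.86 to 0.19, unadjusted p = 0.181, adjusted p = 0.988, edgeR), and it ran from -0.42 to -0.27 over all alternatives. The pools held 51 to 81 counts, and the spread of log2 CPM within groups was at percentile 3.65 of all tested genes. The quercetin mean was 0.792 of the control mean, a difference that rests on few reads. Of its 31-base words 11.9% occur in other genes, most of them in Gm5705, which had at most 5 counts a pool.

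Eif4e (chr3:138526179-138559696, plus strand), the gene for the general cap-binding subunit, stood high in both pools numbered 1, control and quercetin alike. It had 335, 62.8 and 65.7 CPM in control pools 1, 2 and 3 and 404, 88.6 and 85.1 CPM in the quercetin pools. The lower of both pools numbered 1 was 3.78 times the highest of the other 4 pools. Across treatments the log2 fold change was 0.32 ± 0.76 (SE, 95% interval -1.41 to 2.04, adjusted p = 0.993, edgeR). Its spread within groups was at percentile 99.03 of all tested genes. The quercetin level was 1.21 times control in the pools numbered 1 and 1.35 times control over the means of pools 2 and 3, a split made after the values were seen. Without both pools numbered 1 the log2 fold change was 0.44 ± 0.21 (SE, unadjusted p = 0.0781, adjusted p = 1, edgeR). Leaving out control pool 1 alone gave 1.59 (unadjusted p = 0.0429, adjusted p = 0.987, edgeR) and leaving out quercetin pool 1 alone gave -0.83, since either leaves a high pool in 1 group only. Of the 31-base words of Eif4e 8.75% occur in other genes, most in Gm7327, which had 83 to 111 counts and no excess in the pools numbered 1.

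The balance of Eif4e1b to Eif4e followed the same division. The log2 ratios per length were -4.06, -1.44 and -1.44 in the control pools and -4.57, -2.31 and -2.20 in the quercetin pools. The groups overlapped over all pools, with means of -2.31 ± 1.51 and -3.03 ± 1.34 (SD, n = 3). Split by number, the quercetin values lay below the control values among the pools numbered 1, a single pool of each group, and among the other 4. That split was made after the values were seen, and the numbers were not taken as pairs. None of the 5 ratios of related genes separated the groups. The ratio of Zar1l to Zar1 averaged -2.62 ± 0.27 and -2.93 ± 0.48, that of Lsm14b to Lsm14a -4.40 ± 1.49 and -4.42 ± 2.30, that of Ybx2 to Ybx1 -1.81 ± 0.73 and -2.09 ± 0.52, and that of Patl2 to Patl1 -0.21 ± 0.11 and -0.32 ± 0.62 in control and quercetin pools.

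**Figure D3:**
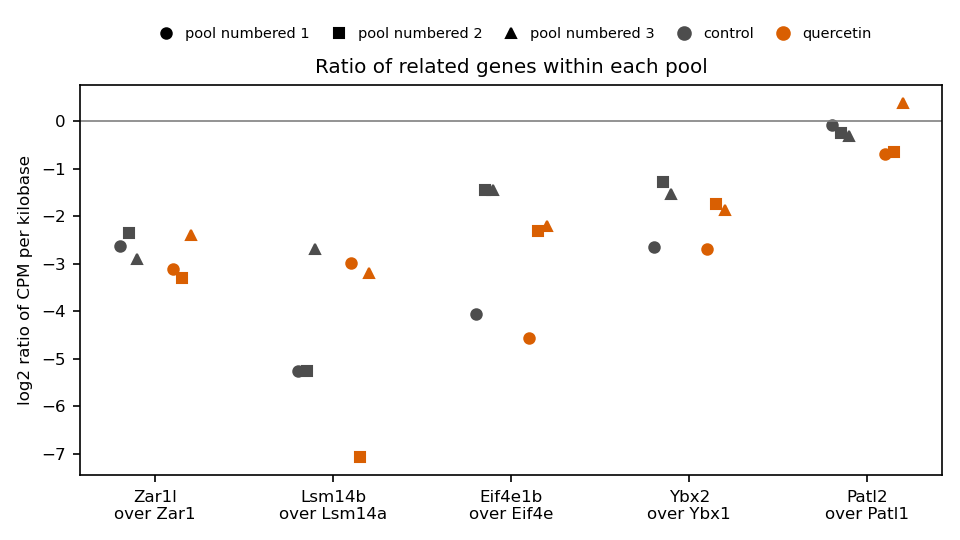
Log2 ratio of CPM per kilobase within each pool for 5 pairs of related genes, with colour giving the group and symbol the pool number. Eif4e1b over Eif4e is lowest in both pools numbered 1 (-4.06 and -4.57), Lsm14b over Lsm14a runs from -7.08 to -2.68, and no ratio separates control from quercetin.

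The other genes of the same machinery were described through lists of their parts. Of 12 genes for cap binding and initiation 11 were tested, and Eif4ebp3 was at 0 in every pool. None was called and none had an unadjusted p under 0.05, 3 fold changes were above and 8 below 0, and the median was -0.061. Eif4e3, a cap-binding paralogue named outside the rule and after its values were seen, had 760 ± 43.6 CPM in the control and 785 ± 26.6 CPM in the quercetin pools (SD, n = 3). Eif4ebp2, which encodes an inhibitory eIF4E-binding protein, had 7.12 ± 0.18 CPM in the control and 6.19 ± 0.561 CPM in the quercetin pools (SD, n = 3). Its quercetin pools all lay below the control pools, with a log2 fold change of -0.20 ± 0.24 (SE, adjusted p = 0.988, edgeR). The same separation held for Eif4e2, a cap-binding relative with repressor function that was singled out after its values were seen. It had 4.62 ± 0.725 and 3.34 ± 0.618 CPM (SD, n = 3), from 21 to 47 counts a pool. Its log2 fold change was -0.46 ± 0.30 (SE, unadjusted p = 0.151, adjusted p = 0.988, edgeR). Thus 2 of the 11 tested genes separated the pools downwards and 0 upwards, beside 5.17% and 5.42% of all tested genes.

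Of 14 genes for P-body and decapping proteins, all were tested, none was called, none had an unadjusted p under 0.05 and none separated the pools. Their fold changes were above 0 for 4 and below 0 for 10 genes, with a median of -0.150 on the log2 scale against -0.026 for all tested genes. Of 22 genes for other proteins of stored mRNA particles, all were tested, with 10 above and 12 below 0, a median of -0.017, no call and no unadjusted p under 0.05. Stau2, which encodes a double-stranded RNA-binding protein of transport particles, was the only one whose pools separated, upwards. It had 44.6, 44.8 and 43.9 CPM in the control and 45.0, 62.0 and 52.0 CPM in the quercetin pools, with a log2 fold change of 0.25 ± 0.18 (SE, adjusted p = 0.988, edgeR). Its pools overlapped when scaled by library size alone. Over all tested genes 5.42% separated the pools upwards and 5.17% downwards. At an unadjusted p under 0.05 (edgeR), 2.14% were higher and 1.89% lower.

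**Figure D4:**
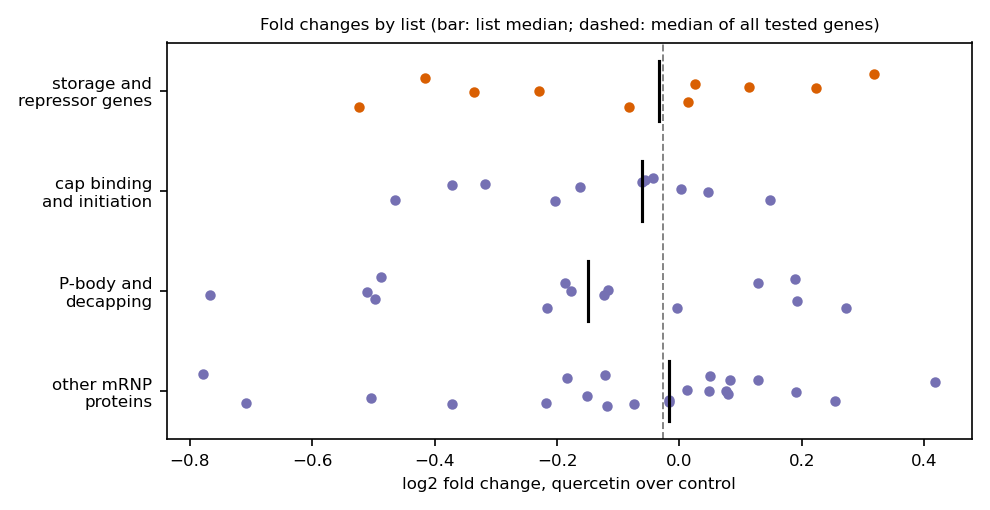
Log2 fold change of quercetin over control for each tested gene of 4 lists (points, spread vertically for legibility), with the list median as a bar and the median of all tested genes, -0.026, as a dashed line. The 10 storage and repressor genes run from -0.52 to 0.32 around a median of -0.034, and the P-body and decapping genes have the lowest median at -0.150.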

How the data were processed

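RNA sequencing of 6 pools of M II oocytes (3 control, 3 quercetin) was analysed, with groups and pool numbers taken from the sample labels. The Smart-seq HT kit used for the libraries primes cDNA from the poly(A) tail. Whether tail length affected the counts was not tested. The study's methods state alignment with Hisat2 to GRCm38.91, whereas the submitters' processing notes name CASAVA 1.8 and TopHat2 2.0.6 with GRCm38 (mm10). The counting program and its handling of strand and multiply aligned reads are not given in the sources used here. The deposited values are raw read counts per Ensembl gene, not normalized. Symbols and coordinates came from GENCODE M21 and were matched for 53274 of 53465 identifiers.

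Genes passing filterByExpr (minimum count 10) were scaled by TMM (factors 0.92 to 1.06) and fitted with the edgeR 4.0.16 quasi-likelihood test in R 4.3.3, without covariates, and p-values were adjusted by the Benjamini-Hochberg method over 11842 genes. A gene was called when its fold change was above 2 with an adjusted p below 0.05. SE is the log2 fold change divided by the square root of F, and 95% intervals were built from it. CPM is TMM-scaled. The spread within groups was computed on log2(CPM + 0.5). A count of 3 corresponds to 0.329 to 0.376 CPM. Alternatives were DESeq2 1.42.0, the edgeR likelihood ratio test, limma-voom (limma 3.58.1), other scalings and filters, a block for the pool number, and leaving out each pool. Leaving out both pools numbered 1 was added after seeing the data. From the other lists, genes were named when their pools did not overlap and their mean was at least 5 CPM, up to 3 a direction by unadjusted p, and Eif4e2 and Eif4e3 were named outside this rule. The genes and lists were chosen with earlier results of these data known.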

Additional observations from a re-analysis of the deposited data

How the results depend on the processing

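None of the 10 genes was called under any of 15 alternatives, and the lowest adjusted p of any of them in any setting was 0.327. The number with an unadjusted p under 0.05, 0 as reported, was 1 under library size scaling (Zar1) and ranged from 0 to 1 when single pools were left out (Eif4e without control pool 1, Zar1l without quercetin pool 3). The share of all tested genes at that threshold was not counted in these settings. Without quercetin pool 3 the adjusted p was lower for all 10 genes, at 0.327 to 0.982 (edgeR) against 0.988 to 0.999 with all pools. The number with separated pools, 1 as reported, was 2 under library size scaling (Zar1 and Eif4e1b), which moved the median of all genes from -0.026 to -0.111. Over all genes, 0 were called in the edgeR quasi-likelihood test described above, 12 with DESeq2 and 16 with the edgeR likelihood ratio test. The number was 3 with the filter of at least 1 count in total and 5 without both pools numbered 1. It was 0 to 7 when single pools were left out. Of 150 recomputed log2 fold changes 20 turned in sign, in 6 genes. They were Lsm14a (-0.066) and Patl2 (-0.057) under library size scaling, Lsm14b with limma-voom (-0.052), and, without both pools numbered 1, Ddx6 (0.243), Lsm14a (-0.025) and Lsm14b (-0.828). With single pools left out, Ddx6 ran from -0.52 to 0.15, Lsm14a from -0.043 to 0.13, Lsm14b from -0.44 to 1.63, Patl2 from -0.19 to 0.13, Eif4enif1 from -0.13 to 0.25 and Eif4e from -0.83 to 1.59. The cause was not tested. Zar1, Zar1l, Ybx2 and Eif4e1b did not turn in sign in any of these settings. The listed P-body genes with an unadjusted p under 0.05 were 0 to 3 and those of other stored particles 0 to 3 over the pools left out. Both lists reached 3 without quercetin pool 3, where the share of all genes was not counted. With the pool number as a replicate block, 1 of the 10 genes had an unadjusted p under 0.05 (Eif4e, log2 fold change 0.38, adjusted p = 0.906 in edgeR), and 0 genes were called. Same-numbered pools deviated together for number 1 (r = 0.305 across genes) but not clearly for 2 and 3 (0.0923 and -0.0313), and control pools 2 and 3 each correlated best with a quercetin pool of another number, so the numbers were not taken as pairs.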

Other observations

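Eif4e was not alone in dividing the pools by number. Of the 11842 tested genes, Eif4e and Fam169a were at least 3-fold higher in both pools numbered 1 than in every other pool, and 14 genes were at least 3-fold lower there. Eif4e, Fam169a and 6 of the lower genes had at least 5 CPM on average. Fam169a had 496 and 518 counts in the pools numbered 1 and 36 to 73 counts in the others. Among these 6 lower genes, Cbx3-ps6 had 1 count in each pool numbered 1 and 99 to 152 counts in the others, Gm49164 had 5 and 3 against 349 to 484, and Cpne1 had 26 and 21 against 211 to 535. The threshold was set after the values were seen, and no cause was tested.

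Zp2, a zona pellucida gene among the oocyte markers, also varied within groups at percentile 99.5 of tested genes. It had 223, 1560 and 630 CPM in the control and 131, 848 and 1325 CPM in the quercetin pools. The pools numbered 1 were the lowest for Zp2, and also for Zp1, Zp3, Bmp15 and Nlrp5. That was not so for Gdf9, Mos, Figla and Oosp1, and no cause was tested. Among the somatic markers Kitl, the KIT ligand gene, had 7.97, 7.69 and 8.66 CPM in the control and 11.9, 12.3 and 12.5 CPM in the quercetin pools. Its log2 fold change was 0.59 ± 0.21 (SE, unadjusted p = 0.0209, adjusted p = 0.988, edgeR quasi-likelihood test). Of all tested genes 2.14% were higher at an unadjusted p under 0.05, and 5.42% separated the pools upwards. Mean control and quercetin levels were 64.3 and 74.6 CPM for Cyp19a1, 4.2 and 4.3 CPM for Has2, and 1.33 and 1.02 CPM for Fshr. Tnfaip6 (0 and 0.533 CPM) and Inhba (0.150 and 0.509 CPM) were near the floor, and the remaining markers were at 0.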
